A study of Mus musculus with 23 samples.

Results

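The comparison set epiblast of embryos heterozygous for a Tet1 gene trap against wild-type epiblast, across all genes. Its members were chosen by label alone, as the libraries of the tissue epiblast with the genotype Tet1gt/wt (labelled Zwt, pools 2, 3, 4 and 5) or wild-type (labelled wt, pools 1, 2, 4 and 5), which gave 8 of the 23 libraries of the study, 4 in each group. All were mouse embryos at E6.25, shortly after implantation. Tet1gt/wt embryos carried 1 trapped and 1 wild-type allele of Tet1, and wild-type embryos carried no trapped allele. A library held the lysates of 6 or more embryos from 2 to 3 litters, pooled by a genotype that was read after dissection, so a value averages over embryos and litters. Homozygous Tet1gt/gt epiblast (labelled ZZ, 4 pools) entered the fit to share 1 estimate of the spread between pools. Its values are given beside a gene where they bear on it. The extra-embryonic libraries entered only an alternative fit of all 23 libraries and are not described here. Neither the trap's position within Tet1 nor the strain or sex of the embryos is given in the sources used here.

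TET1 is a dioxygenase that oxidises 5-methylcytosine in DNA, the first step of active DNA demethylation, and it also recruits repressor complexes such as SIN3A to chromatin. The epiblast is the pluripotent layer that forms the embryo proper. At this stage it is a cup of cells wrapped in visceral endoderm, an absorptive epithelium that secretes plasma proteins such as alpha-fetoprotein and the apolipoproteins, and it is joined to the extra-embryonic ectoderm, which gives rise to trophoblast.

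The 8 libraries held 5764399 to 9452811 counts in the Tet1gt/wt group and 6899786 to 9021097 in the wild-type group, and a count of 0 in a Tet1gt/wt library allows up to 3 counts, or 0.321 to 0.524 CPM, a count divided by its library's TMM-scaled total. Epiblast markers were high throughout: Pou5f1 lay at 864 to 1101 CPM in Tet1gt/wt pools and 634 to 834 CPM in wild-type pools. A pair of libraries stood apart. Tet1gt/wt pool 4, the least deeply sequenced, read short and GC-rich transcripts higher than the other pools did, where the deviation of its genes from their mean over libraries changed by -0.37 (log2) per doubling of transcript length and by 0.67 per 10% of GC content, against 0.02 to 0.12 and -0.36 to 0.03 in the other 7 libraries. Wild-type pool 1 carried 2137 CPM of summed visceral endoderm transcripts, against 317 to 548 CPM in the other wild-type pools. Values without one or both libraries of this doubted pair are given beside the results they moved most. In pooled tissue, fewer cells of a type and less RNA per cell cannot be told apart.

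Tet1, the trapped gene (chromosome 10, 62804570 to 62908996, minus strand, GRCm38), was measured at 148, 147, 66.2 and 137 CPM in Tet1gt/wt pools 2, 3, 4 and 5, against 127, 177, 191 and 198 CPM in wild-type pools 1, 2, 4 and 5. The groups overlapped through wild-type pool 1, which lay below 3 of the 4 Tet1gt/wt pools, and Tet1gt/wt pool 4 lay far below its group. The Tet1gt/wt level was 72.0% ± 22.7 of the wild-type mean (SD, n = 4), a difference that a two-sided exact permutation test did not separate from the spread (p = 0.114, where the smallest p possible is 0.0286). In edgeR's quasi-likelihood fit the log2 fold change was -0.47 ± 0.27 (SE), with a Benjamini-Hochberg adjusted p of 0.982. With a correction for GC content and length the edgeR value was -0.32 ± 0.16 (unadjusted p = 0.0651). Tet1 has a long transcript (14369 bp, 43.7% GC), whereas Tet1gt/wt pool 4 read short and GC-rich transcripts higher. The part of that bias in the low value of pool 4 was not tested.

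Without Tet1gt/wt pool 4 the level was 83.3% ± 3.44 of the wild-type mean (SD, n = 3), and without wild-type pool 1 it was 66.2% ± 20.9 (SD, n = 4), with exact permutation p of 0.229 and 0.0571. With both left out, the 3 Tet1gt/wt pools all lay below the 3 wild-type pools, at 76.6% ± 3.16 of their mean (SD, n = 3; exact permutation p = 0.1, the smallest that 3 against 3 allows). Homozygous epiblast, which shares the wild-type pools as its control, held 69.5, 88.6, 54.9 and 114 CPM. Its pool 3, at 54.9 CPM, also read short and GC-rich transcripts higher. The Tet1 mean was lower in the Tet1gt/wt group, but the 8 libraries did not separate by genotype.

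No gene passed the threshold of the main test. Of 12405 genes tested, 0 were higher (0.0%) and 0 lower (0.0%) in Tet1gt/wt epiblast at an adjusted p under 0.05 in edgeR, and 298 (2.4%) had an unadjusted p under 0.05, of which 115 were higher (0.927%) and 183 lower (1.48%). The limma-voom test also gave 0 higher (0.0%) and 0 lower (0.0%), with 323 genes under an unadjusted p of 0.05. DESeq2 gave 0 higher (0.0%) and 4 lower of 12384 genes (0.0323%), with 388 genes under an unadjusted p of 0.05. The 4 were Apob, Afp, Herc6 and Zfp791, which were also among the genes of smallest p in edgeR. As a description, the 4 Tet1gt/wt values all lay above the 4 wild-type values for 174 genes (1.4%) and all below for 185 genes (1.49%). Random labels would set 4 values fully apart from 4 others, in either direction, with a probability of 0.0286. These shares are near that, so a lack of overlap alone does not mark a gene. Every gene given below had an edgeR adjusted p of 0.982 or more, so no difference passed that test after adjustment over all genes tested. The words "higher" and "lower" state only how the values of a gene lay.

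Transcripts of visceral endoderm lay lower in Tet1gt/wt epiblast, with the lowest median of the lists described. Apob, which encodes the structural protein of low-density lipoprotein particles (chromosome 12, 7977648 to 8016835), was at 0, 0, 0.349 and 0 CPM in Tet1gt/wt pools 2, 3, 4 and 5, against 48.1, 6.26, 8.96 and 9.68 CPM in wild-type pools 1, 2, 4 and 5. Afp, the gene of the fetal serum protein alpha-fetoprotein (chromosome 5, 90490737 to 90508907), had no count in any Tet1gt/wt pool, against 19.8, 1.87, 7.88 and 2.53 CPM in wild-type pools. No Tet1gt/wt pool reached the lowest wild-type pool for either gene. DESeq2 called both lower, Apob with a log2 fold change of -8.02 (adjusted p = 0.0285) and Afp with an adjusted p of 0.0056; edgeR put Apob at -7.79 ± 1.60 (SE; unadjusted p = 0.000233, adjusted p = 0.982), and at -6.64 without wild-type pool 1 and -9.03 without both doubted libraries. These fitted values rest on 2 counts of Apob in all Tet1gt/wt pools, which put the Tet1gt/wt mean at 0.479% of the wild-type mean (95% exact Poisson interval of the 2 counts 0.0580% to 1.73%, counting error only). Against the highest value that 3 counts stand for in a single Tet1gt/wt library, Afp was at least 15.3-fold lower, or at least 7.81-fold without wild-type pool 1. Homozygous epiblast, against the same wild-type pools, held 27.2, 25.6, 0 and 3.61 CPM of Apob and 28.1, 27.3, 0.686 and 1.03 CPM of Afp, so 2 of its 4 pools lay above the wild-type mean of both genes.

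Some genes of endocytosis on the list were also lower. Cubn, the endocytic receptor cubilin, was at 1.07, 0.233, 0 and 0 CPM in Tet1gt/wt pools, against 95.5, 1.32, 5.16 and 2.53 CPM in wild-type pools. Dab2, an adaptor for that receptor, was at 9.74, 27.7, 7.86 and 8.84 CPM in Tet1gt/wt pools, against 363, 33.2, 45.4 and 34.2 CPM in wild-type pools. Wild-type pool 1 held most of both transcripts, and the groups did not overlap in either. Trf, the iron carrier transferrin, likewise reached 3.00 CPM at most in Tet1gt/wt pools, against 4.47 CPM at least in wild-type pools. Hnf4a, a nuclear receptor that drives hepatic and visceral endoderm genes, had no count in any Tet1gt/wt pool, against 25.2, 0, 2.04 and 0.447 CPM in wild-type pools, and was at least 13.2-fold lower by the same floor. That bound rests on wild-type pool 1, and without it Hnf4a was at least 1.58-fold lower. Amn, the partner that anchors cubilin in the membrane, overlapped between groups, at 1.82 to 9.95 CPM in Tet1gt/wt pools and 3.72 to 101 CPM in wild-type pools. Lrp2, the megalin receptor that works with cubilin, was the 1 tested member with a positive log2 fold change (0.43 ± 0.26), at 107, 81.2, 65.0 and 90.4 CPM in Tet1gt/wt pools and 54.3, 56.2, 90.6 and 53.5 CPM in wild-type pools.

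Of the 32 listed visceral endoderm genes, 27 were tested, and 26 of these were lower and 1 higher in Tet1gt/wt epiblast, with 5 not overlapping between groups, against 50.1% of all genes tested below 0 and 49.9% above, 1.49% not overlapping in the lower direction. The 27 passed the filter largely through the group where they were high, so all 32 were also counted by their means: 30 were lower and 2 higher. The median log2 fold change of the tested members was -3.13, against 0.00 over all genes tested. Without wild-type pool 1 it was -1.12 with 19 lower and 8 higher, without Tet1gt/wt pool 4 it was -3.61, and without both it was -1.45 with 22 lower and 5 higher. Genes at 0 in every Tet1gt/wt library, when put at their bound, moved the medians to -1.08 without wild-type pool 1 and -1.29 without both. Without both libraries, 8 members did not overlap, all lower, beside 4.44% of the 12671 genes then tested.

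Library by library, the list averaged a log2 CPM of 0.75, 0.36, 1.15 and 0.27 in Tet1gt/wt pools 2, 3, 4 and 5 and 5.16, 1.19, 2.63 and 1.26 in wild-type pools 1, 2, 4 and 5. The highest Tet1gt/wt pool thus lay just below the lowest wild-type pool, and wild-type pools 2 and 5 were closer to the Tet1gt/wt pools than to wild-type pool 1. By summed CPM, which the abundant Apoe leads, the groups overlapped, at 315, 301, 663 and 299 CPM in Tet1gt/wt pools and 2137, 367, 548 and 317 CPM in wild-type pools. In a fit with each library's visceral endoderm level as a covariate, built from this list, the list's median was 0.34. How much visceral endoderm was dissected with each epiblast was not recorded in the sources used here, and its part in these values was not tested.

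**Figure D1:**
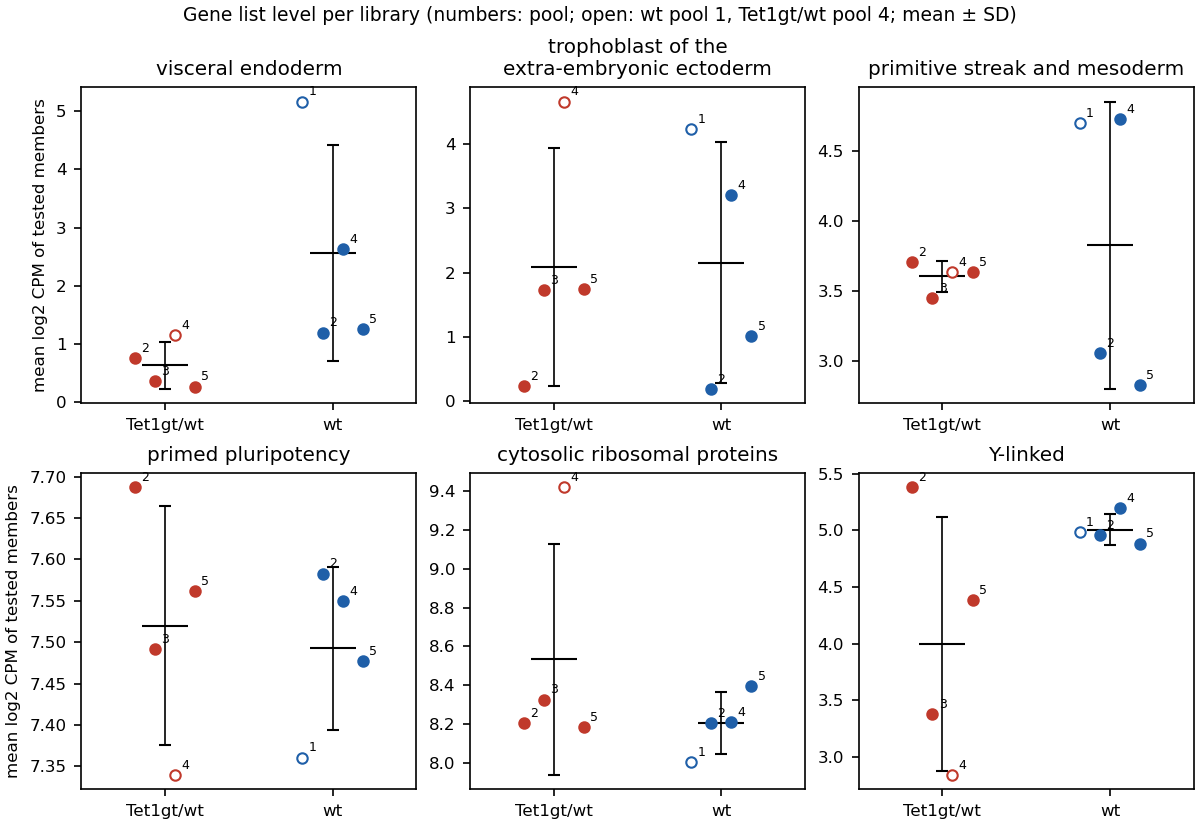
Mean log2 CPM of the tested members of 6 gene lists in each epiblast library, with Tet1gt/wt on the left and wild type on the right of each panel, pool numbers beside the points, open points for Tet1gt/wt pool 4 and wild-type pool 1, and the group mean ± SD (n = 4 each). Visceral endoderm genes lie at 0.27 to 1.15 in Tet1gt/wt pools and 1.19 to 5.16 in wild-type pools, while the other 5 lists drawn overlap between groups.

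Promoters of these genes are shown because some carry a motif that was not used to pick them. The RefSeq promoter table (GRCm38.p6, 250 bases before to 50 after a gene's start) held 36 promoters of 23 of the 32 genes. The motif GTTAAT, the core of the site bound by HNF1 factors, which act in liver and visceral endoderm, was searched on both strands and reads ATTAAC on the other. It occurred in 9 of the 36 promoters (25%), each of a different gene, against 4.18% of the 11960 promoters of genes tested here and 7.1% of all 32851 promoters in the table. The GATA motif AGATAA, read as TTATCT on the other strand, occurred in 4 (11.1%), against 6.03% of the promoters of genes tested and 11.2% of all promoters. Neither motif contains the other. CpG pairs were averaged over the promoters of each gene, and the median over genes was 9 in the list, against 21 for genes tested and 7 for all genes with a promoter. Afp and the Hnf4a promoter given here carry the HNF1 motif, marked in capitals, and Apob carries neither motif in this window. Of the 10 lower and 10 higher genes of smallest p that were named, 1 of 14 promoters (7.14%) and 1 of 7 promoters (14.3%) carried the HNF1 motif. A match describes the letters and not binding, and the share in the list describes its genes and not the comparison of genotypes.
Afp, chr5:90490464-90490763, plus strand: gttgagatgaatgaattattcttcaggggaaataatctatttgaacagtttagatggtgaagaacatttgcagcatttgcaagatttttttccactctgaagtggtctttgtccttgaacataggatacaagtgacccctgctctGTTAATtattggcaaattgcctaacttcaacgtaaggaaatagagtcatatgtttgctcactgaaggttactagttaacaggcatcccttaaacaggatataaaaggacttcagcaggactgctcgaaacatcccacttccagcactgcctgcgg
Hnf4a, chr2:163546905-163547204, plus strand: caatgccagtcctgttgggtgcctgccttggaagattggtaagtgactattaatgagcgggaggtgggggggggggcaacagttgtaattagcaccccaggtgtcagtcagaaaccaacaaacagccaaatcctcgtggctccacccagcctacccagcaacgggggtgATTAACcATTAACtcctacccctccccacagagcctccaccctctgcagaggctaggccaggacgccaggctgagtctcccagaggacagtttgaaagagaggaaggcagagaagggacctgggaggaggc
Apob, chr12:7977427-7977726, plus strand: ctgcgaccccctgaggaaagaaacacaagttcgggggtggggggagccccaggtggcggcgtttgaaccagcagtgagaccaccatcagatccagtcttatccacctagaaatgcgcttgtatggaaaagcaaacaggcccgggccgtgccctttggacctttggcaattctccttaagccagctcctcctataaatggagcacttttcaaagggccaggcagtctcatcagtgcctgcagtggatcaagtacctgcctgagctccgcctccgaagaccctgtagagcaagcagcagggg

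Several genes outside the visceral endoderm list were also lower. Herc6, which encodes a ubiquitin ligase that in mouse attaches the interferon-induced modifier ISG15 (chromosome 6, 57581000 to 57664632), was at 1.07, 0.581, 0.524 and 0.660 CPM in Tet1gt/wt pools, against 3.43, 4.50, 7.61 and 7.89 CPM in wild-type pools. The groups were apart, but the Tet1gt/wt values were near the floor and rest on few counts, with pool 4 at the 0.524 CPM of 3 counts. DESeq2 called the gene lower (log2 fold change -3.02, adjusted p = 0.0056), against -3.00 ± 0.62 in edgeR (adjusted p = 0.982). The value was -3.08 without the doubted pair of libraries and -3.49 with the visceral endoderm covariate. Of 22 tested members of the interferon-response list, to which Herc6 belongs, 11 were higher and 11 lower, or 13 and 9 without Tet1gt/wt pool 4. The list's mean log2 CPM, with Herc6 included, was 2.27 to 2.56 in Tet1gt/wt pools, against 2.59 to 2.76 in wild-type pools. Herc6 had been picked for its small p and the mean was not taken without it, so this narrow gap does not describe the rest of the list. Its median log2 fold change was -0.02. Homozygous pools held 2.82, 1.27, 3.09 and 4.81 CPM of Herc6, all above the Tet1gt/wt pools and overlapping the wild-type range.

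Zfp791, a zinc finger gene (chromosome 8, 85108553 to 85123095), had no count in any Tet1gt/wt pool, against 3.96, 3.62, 0.951 and 1.94 CPM in wild-type pools, and was at least 4.997-fold lower, or at least 4.14-fold without wild-type pool 1. DESeq2 called it lower (adjusted p = 0.0056), and the homozygous pools held 0.225, 1.16, 1.71 and 0.859 CPM. Zinc finger genes have close copies, among which the counting could divide reads. Vegfa, the endothelial growth factor gene (chromosome 17, 46016993 to 46032369), was at 5.67, 5.93, 6.11 and 3.30 CPM in Tet1gt/wt pools, against 18.5, 18.8, 11.1 and 10.1 CPM in wild-type pools. Its log2 fold change was -1.48 ± 0.36 (DESeq2 adjusted p = 0.100) and -1.43 without the doubted pair, and the homozygous pools were at 7.03 to 11.9 CPM. The hypoxia-response list, Vegfa included, had 9 members higher and 9 lower of 18 tested, and 6 higher and 12 lower without both doubted libraries.

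Phka2, the X-linked regulatory subunit of liver phosphorylase kinase, was at 6.32, 8.14, 6.29 and 5.94 CPM in Tet1gt/wt pools, against 19.7, 25.1, 16.3 and 11.02 CPM in wild-type pools. The homozygous pools, at 4.29 to 9.62 CPM, were also below every wild-type pool. Satb1, an organiser of chromatin loops, was at 50.4, 42.2, 36.0 and 56.6 CPM in Tet1gt/wt pools, against 92.4, 72.0, 68.3 and 67.2 CPM in wild-type pools. Ralgps1, an exchange factor for the GTPase RalA, lay at 2.79 to 3.43 CPM in Tet1gt/wt pools and 5.70 to 10.6 CPM in wild-type pools. The log2 fold changes of these 3 genes were -1.43 ± 0.36, -0.69 ± 0.19 and -1.52 ± 0.43. Armc9, a ciliary protein gene (-0.96), Nbas, a factor of Golgi-to-ER transport (-1.06), and 4933426M11Rik (-1.34) were also among the 10 lower genes of smallest p that were named, as was Slc13a4, a sodium-coupled sulphate transporter. Slc13a4 was highest in wild-type pool 1, as the visceral endoderm list was, at 3.32, 0.233, 0.175 and 3.30 CPM in Tet1gt/wt pools, against 56.9, 11.3, 5.43 and 5.51 CPM in wild-type pools, and its log2 fold change of -3.46 became -1.70 without the doubted pair.

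**Figure D2:**
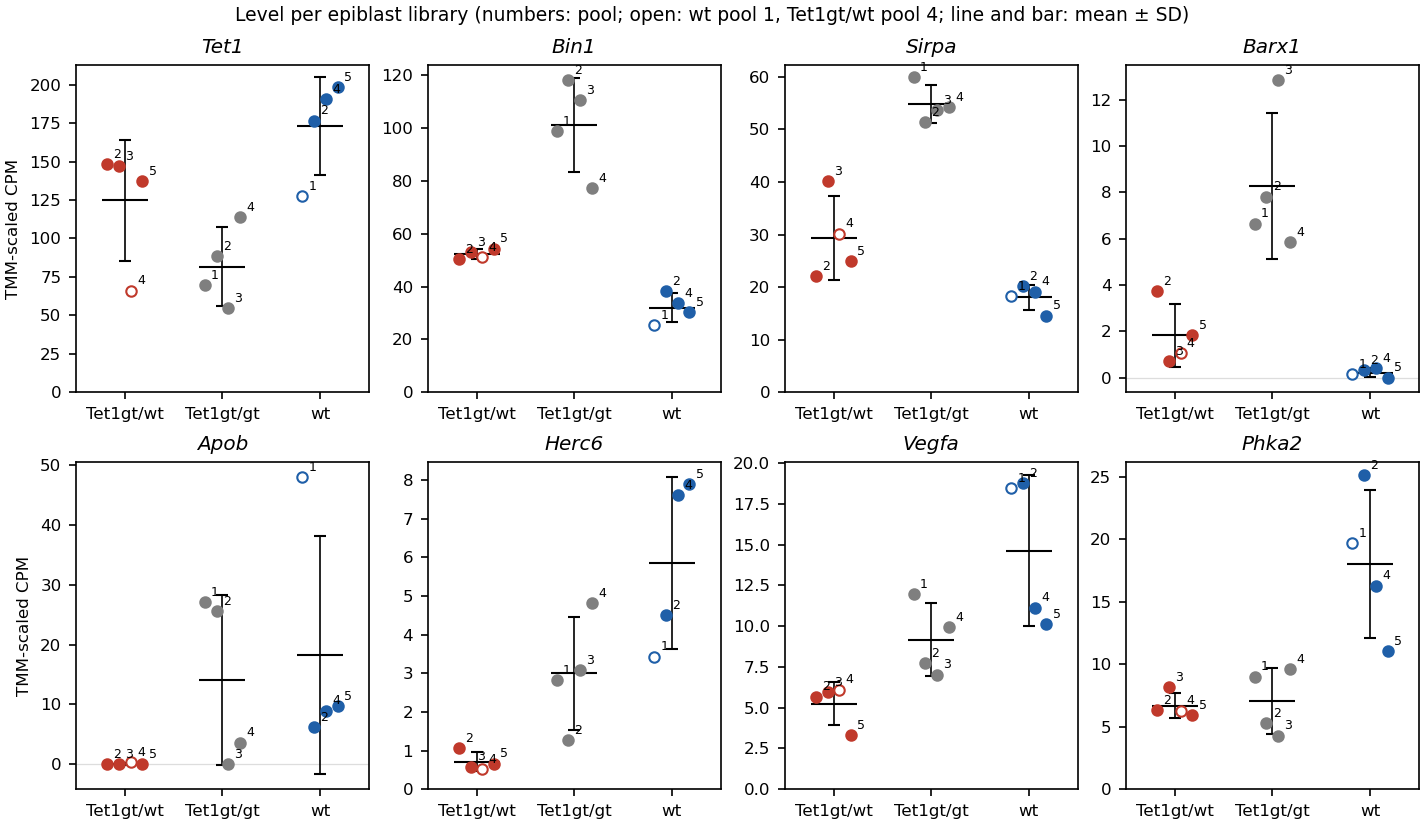
TMM-scaled CPM of 8 genes in the 12 epiblast libraries, grouped as Tet1gt/wt, Tet1gt/gt and wild type, with pool numbers, open points for Tet1gt/wt pool 4 and wild-type pool 1, and group means ± SD (n = 4 each). The Tet1gt/wt and wild-type points overlap for Tet1 and are apart for the other 7 genes, and for Bin1, Sirpa and Barx1 the homozygous points lie highest.

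Among the genes that were higher, Bin1, Sirpa and Barx1 are given first because each is also higher in homozygous epiblast. They were listed for that reason, with the homozygous result known, and share the wild-type pools with it, so the second comparison is no independent support. Bin1, a BAR-domain protein that curves membranes (chromosome 18, 32377230 to 32435737), was at 50.3, 53.02, 51.0 and 54.4 CPM in Tet1gt/wt pools, against 25.4, 38.3, 33.8 and 30.4 CPM in wild-type pools. All 4 Tet1gt/wt values were above the highest wild-type pool. The log2 fold change was 0.71 ± 0.19 in edgeR (adjusted p = 0.982; DESeq2 adjusted p = 0.243) and 0.62 without the doubted pair. The homozygous pools held 98.6, 118, 110 and 77.1 CPM, above every Tet1gt/wt pool. Exons of Bin1 overlap A830052D11Rik, and reads there cannot be assigned without the counting's strand setting.

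Sirpa, the receptor for the self-recognition ligand CD47 (chromosome 2, 129592835 to 129632228), was at 22.1, 40.1, 30.2 and 24.9 CPM in Tet1gt/wt pools, against 18.4, 20.2, 19.2 and 14.6 CPM in wild-type pools. The log2 fold change was 0.70 ± 0.22, and the homozygous pools, at 51.3 to 59.9 CPM, lay above all others. Barx1, a homeobox transcription factor (chromosome 13, 48662998 to 48666507), was near the floor, at 3.75, 0.698, 1.05 and 1.85 CPM in Tet1gt/wt pools, against 0.132, 0.329, 0.407 and 0 CPM in wild-type pools. Its log2 fold change of 2.97 ± 0.80 thus rests on few counts (DESeq2 adjusted p = 0.243), and the homozygous pools held 5.84 to 12.9 CPM.

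The 9 genes singled out in homozygous epiblast had a mean log2 CPM of 3.33 to 3.84 in Tet1gt/wt pools, against 2.94 to 3.25 in wild-type pools, so the list's groups did not overlap. The other members did not all lie between the homozygous and wild-type levels. Cd44, a hyaluronan receptor, was at 4.60, 5.58, 0.175 and 3.96 CPM in Tet1gt/wt pools, against 1.85, 1.21, 1.36 and 1.04 CPM in wild-type pools and 12.7 to 16.8 CPM in homozygous pools. Only pool 4 broke the order, and the log2 fold change of 1.40 ± 0.63 became 1.95 ± 0.43 without the doubted pair. Twist1 and Crabp2, a transcription factor of mesenchyme and a retinoic acid carrier, overlapped between groups, with log2 fold changes of 0.60 ± 0.58 and 0.47 ± 0.24. Rsbn1, Nnat and Jmjd8, chosen because they are lower in homozygous epiblast, lay at 8.73 to 27.9, 34.2 to 55.4 and 11.6 to 23.2 CPM in Tet1gt/wt pools, against 23.1 to 37.7, 36.6 to 60.6 and 10.7 to 17.0 CPM in wild-type pools. Those 3 ranges overlapped, and Jmjd8 shares exons with Stub1.

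Other genes of small p were also higher without overlap. Rin1, an effector of RAS that activates RAB5, was at 10.4, 18.5, 26.2 and 12.4 CPM in Tet1gt/wt pools, against 3.30, 7.58, 4.48 and 6.254 CPM in wild-type pools, with a log2 fold change of 1.63 ± 0.47 that was 1.16 without the doubted pair. Gng10, a G protein gamma subunit (0.65), Dlgap4, a synaptic scaffold (0.64), and 4930426D05Rik, whose exons overlap Klhl14 (1.56), had log2 fold changes of 0.55, 0.54 and 1.52 without that pair. Cox19, an assembly factor of cytochrome oxidase (0.87), Fdx1, a mitochondrial ferredoxin (0.82), and Hopx, a homeodomain-only protein (0.84), were highest in Tet1gt/wt pool 4, at 51.7, 35.6 and 35.4 CPM, and had values of 0.77, 0.55 and 0.52 without the pair.

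Leaving out wild-type pool 1 and Tet1gt/wt pool 4 together again called 0 genes in edgeR, of 12671 tested, with 265 under an unadjusted p of 0.05. Homozygous pool 3, which enters the shared spread, read short and GC-rich transcripts high as Tet1gt/wt pool 4 did (-0.32 per doubling of length, 0.72 per 10% of GC). Without it as well, 493 genes of 12615 had an unadjusted p under 0.05 and 0 were called. With the pair left out and homozygous pool 3 kept, 615 genes (4.85%) were higher and 562 (4.44%) lower in all 3 Tet1gt/wt pools than in all 3 wild-type pools. Random labels would set 3 values apart from 3 others, in either direction, with a probability of 0.1, which these shares are near. Beside Herc6 and Cd44, the genes of smallest p in that fit included Nr3c1, the glucocorticoid receptor, at 9.10, 9.07, 0.873 and 7.26 CPM in Tet1gt/wt pools, against 6.21, 1.65, 2.99 and 2.83 CPM in wild-type pools. Pool 4 was the low one, and the log2 fold change was 1.77 ± 0.51 without the pair and 0.95 ± 0.63 with it. Klhl42, an adaptor of cullin ubiquitin ligases (1.36), Dram2, a lysosomal membrane protein that shares exons with Cept1 (1.98), and Zfp954, a zinc finger gene (1.45), were higher in that fit. Anxa5, a phosphatidylserine-binding annexin, was at 1.18, 1.74, 43.0 and 1.72 CPM in Tet1gt/wt pools, against 19.9, 5.16, 18.7 and 9.53 CPM in wild-type pools. Its log2 fold change was -2.84 ± 0.79 without the pair and -0.18 ± 1.01 with it, and it was -3.10 without Tet1gt/wt pool 4 alone. Fam214a (-2.45), Tnrc18 (-1.43) and Cnnm2, a membrane protein of magnesium transport (-1.31), were lower in that fit.

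**Figure D3:**
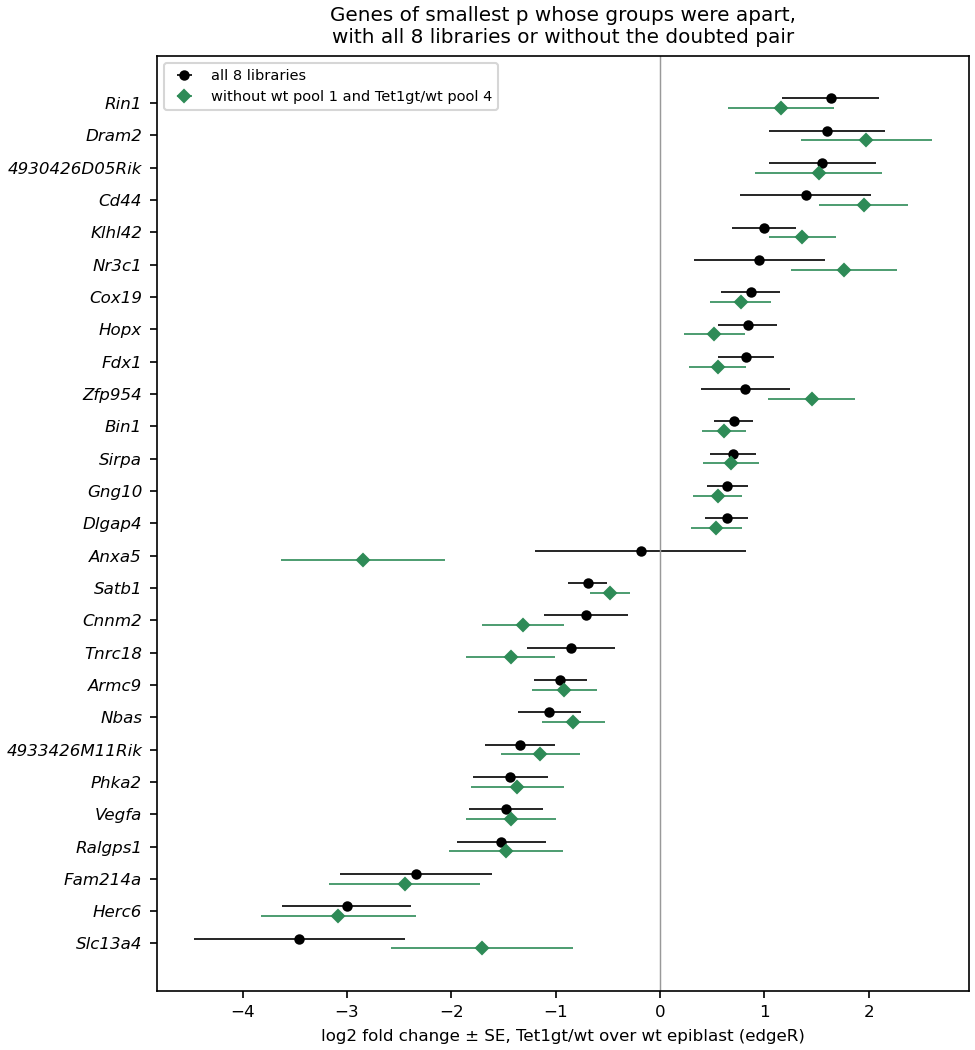
Log2 fold change ± SE, Tet1gt/wt over wild-type epiblast (edgeR), of the genes named for the smallest p among those whose groups did not overlap, either over all 8 libraries or once wild-type pool 1 and Tet1gt/wt pool 4 were left out. Black circles use all 8 libraries and green diamonds leave out the pair; Apob is left out of the plot for its scale. Herc6 reads -3.00 and -3.08, whereas Anxa5, whose groups overlap over all 8 libraries, reads -0.18 and -2.84 and Slc13a4 -3.46 and -1.70.

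Pluripotency genes lay on both sides of 0. Of 21 primed pluripotency genes, all tested, 10 were higher and 11 lower in Tet1gt/wt epiblast, with a median log2 fold change of -0.01 and of 0.01 without the doubted pair. Pou5f1, which encodes OCT4, was the member of smallest p, at 933, 875, 1101 and 864 CPM in Tet1gt/wt pools, against 677, 834, 809 and 634 CPM in wild-type pools (0.35 ± 0.15, unadjusted p = 0.0369). Its groups did not overlap, nor did those of Utf1 (0.32 ± 0.22), though both gave less without the pair, at 0.23 and 0.13. Of 12 naive pluripotency genes tested, 6 were higher and 6 lower, with a median of -0.08. Both doubted libraries moved this list, to 4 higher and 8 lower without Tet1gt/wt pool 4 (median -0.84) and to 8 higher and 4 lower without wild-type pool 1 (median 0.39). Gdf3, a Nodal-related ligand, was at 27.7, 9.07, 25.3 and 19.13 CPM in Tet1gt/wt pools, against 11.9, 9.77, 12.9 and 8.64 CPM in wild-type pools, while 9 of 20 tested Nodal pathway genes were higher and 11 lower, or 12 and 8 without both doubted libraries.

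Genes of the primitive streak and of anterior visceral endoderm, which pattern the epiblast, were carried by particular wild-type pools. In Mixl1, a streak transcription factor, Tet1gt/wt pools held 39.8, 21.3, 18.5 and 24.3 CPM, against 127, 16.4, 94.4 and 4.91 CPM in wild-type pools. Mesp1, of nascent mesoderm, was at 2.46, 1.98, 9.60 and 0.792 CPM in Tet1gt/wt pools, against 24.2, 0, 34.8 and 0.596 CPM in wild-type pools. Wild-type pools 1 and 4 were high and wild-type pools 2 and 5 low for both, so the wild-type pools spanned the Tet1gt/wt pools. The streak list had 3 members higher and 13 lower of 16 tested, with a median of -0.24. It had 6 higher and 10 lower without wild-type pool 1 (median -0.13), and 5 and 11 without both doubted libraries (median -0.17). With the visceral endoderm covariate it had 13 higher and 3 lower (median 0.19). In the anterior visceral endoderm list 2 were higher and 7 lower of 9 tested, with a median of -0.62 and of -0.20 without the doubted pair. Dkk1, a secreted WNT inhibitor, had 1 Tet1gt/wt pool above 0, at 0.107 CPM, against 3.30, 0.878, 5.98 and 0.149 CPM in wild-type pools. Cer1, an inhibitor of Nodal and BMP, had no count in any Tet1gt/wt pool, against 1.72, 0, 2.04 and 1.19 CPM in wild-type pools. The WNT pathway as a whole had 6 members higher and 22 lower of 28 tested, with a median of -0.15.

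Trophoblast transcripts were high in single libraries of both groups. Hand1, a transcription factor of trophoblast giant cells and mesoderm, was at 0.214, 2.56, 149 and 3.96 CPM in Tet1gt/wt pools, against 46.9, 1.87, 15.6 and 2.23 CPM in wild-type pools. Cdx2, which specifies trophoblast, was at 1.82, 2.91, 33.5 and 5.81 CPM in Tet1gt/wt pools, against 14.7, 0.329, 19 and 0.596 CPM in wild-type pools. Tet1gt/wt pool 4 and wild-type pools 1 and 4 were the high ones, as they were in the summed list, at 55.7, 90.9, 671 and 99.1 CPM in Tet1gt/wt pools and 409, 53.1, 227 and 65.1 CPM in wild-type pools. Among 15 of 22 members tested, 10 were higher and 5 lower, with a median of 0.24 that turned to -1.77 without Tet1gt/wt pool 4 and to -0.998 without both doubted libraries. The remaining 7 members, Prl2c2 and Tpbpa of differentiated trophoblast among them, did not pass the filter, and those 2 had no count in any of the 8 libraries. Maternal decidua genes were 5 higher and 2 lower of 7 tested, with a median of 0.27, which was 1.06 without wild-type pool 1 and 0.60 without both. The list's mean log2 CPM was higher in every Tet1gt/wt pool, at 1.16 to 1.45, than in any wild-type pool, at 0.50 to 0.97. No member exceeded 17.1 CPM in any of the 8 libraries, and Col1a2, a fibrillar collagen, was the 1 member without overlap, at 6.53, 5.12, 4.71 and 6.86 CPM in Tet1gt/wt pools, against 4.49, 2.42, 4.07 and 1.79 CPM in wild-type pools. Over all genes tested, 1.4% were higher without overlap. The part of decidua in the other results was not tested. Of the blood list 1 gene passed the filter, Hba-a2, at 0.581 to 1.61 CPM in Tet1gt/wt pools and 0 to 5.28 CPM in wild-type pools.

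None of the enzymes that write, read or remove DNA methylation passed the test. Dnmt1, the maintenance methyltransferase, was at 338, 368, 210 and 355 CPM in Tet1gt/wt pools, against 382, 322, 363 and 368 CPM in wild-type pools, with pool 4 alone low. Dnmt3b, the abundant de novo enzyme, lay at 4162 to 7897 CPM in Tet1gt/wt pools and 6229 to 7752 CPM in wild-type pools. The log2 fold changes of Dnmt1, Dnmt3a, Dnmt3b, Dnmt3l and the methylation reader Uhrf1 were -0.18 ± 0.19, 0.00 ± 0.15, -0.13 ± 0.17, 0.29 ± 0.46 and -0.01 ± 0.13, and each changed sign under some alternative. Tet2, low at 0 to 4.19 CPM in Tet1gt/wt pools and 0.988 to 8.58 CPM in wild-type pools, had a log2 fold change of -0.50 ± 1.00. Tet3 was at 22.4 to 41.3 CPM in Tet1gt/wt pools, against 18.7 to 46.2 CPM in wild-type pools (-0.14 ± 0.28). Tdg, the glycosylase that removes the oxidised bases made by TET enzymes, was at 318, 272, 146 and 307 CPM in Tet1gt/wt pools, against 362, 321, 330 and 341 CPM in wild-type pools. It was the only member of its list without overlap with all 8 libraries, by a gap of few CPM, at -0.38 ± 0.25 and -0.15 without the pair. Of all genes tested, 1.49% were lower without overlap. The list in all had 6 members higher and 13 lower of 19 tested.

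Known binding partners of TET1 and subunits of Polycomb complex PRC2 were 2 higher and 11 lower of 13, with a median of -0.19 that was -0.04 without Tet1gt/wt pool 4. Among imprinted genes 14 were higher and 22 lower of 36 tested, with a median of -0.17. Without Tet1gt/wt pool 4 the list had 5 higher and 31 lower with a median of -0.46, and without both doubted libraries 7 higher and 29 lower with a median of -0.28. Impact, an imprinted regulator of the stress kinase GCN2, was at 36.2, 20.5, 11.5 and 26.8 CPM in Tet1gt/wt pools, against 55.7, 45.5, 32.1 and 56.3 CPM in wild-type pools, a range that overlapped through Tet1gt/wt pool 2. Germline genes, many of which are silenced by promoter methylation, were 11 higher and 9 lower of 20 tested, with a median of 0.04 that was 0.19 without both. The FGF and ERK list had 10 higher and 15 lower of 25, or 14 and 11 without Tet1gt/wt pool 4. The BMP list had 9 higher and 9 lower of 18, or 5 and 13 without that pool and 6 and 12 without both. Glycolysis had 11 higher and 8 lower of 19, or 5 and 14 without both, and the integrated stress response had 10 and 9 of 19, or 8 and 11. Immediate early genes had 6 higher and 8 lower of 14, or 4 and 10 without Tet1gt/wt pool 4, and the cholesterol synthesis list had 12 and 14 of 26, or 14 and 12. Of the p53 targets 5 were higher and 9 lower of 14, or 8 and 6 without that pool. Phlda3, a p53-induced inhibitor of AKT, was the 1 of them without overlap, at 27.4, 27.2, 43.1 and 22.6 CPM in Tet1gt/wt pools, against 16.9, 12.4, 15.2 and 16.7 CPM in wild-type pools (0.97 ± 0.33, unadjusted p = 0.0111). Beside it, 1.4% of all genes tested were higher without overlap.

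Ribosomal protein and respiratory chain genes showed how far 1 library could move a whole list. All 79 tested cytosolic ribosomal protein genes were higher in Tet1gt/wt epiblast, with a median of 0.41, and 73 of 75 oxidative phosphorylation genes were, with a median of 0.38. Without Tet1gt/wt pool 4 both medians were 0.02. The ribosomal list averaged a log2 CPM of 8.20, 8.33, 9.42 and 8.18 in Tet1gt/wt pools and 8.01, 8.20, 8.21 and 8.40 in wild-type pools, so pool 4 stood alone. These are short transcripts, which pool 4 read high, and with a correction for GC content and length both medians were 0.05. Y-linked genes, which track the share of male embryos in a pool, had mean log2 CPM of 5.38, 3.38, 2.84 and 4.39 in Tet1gt/wt pools and 4.99, 4.96, 5.20 and 4.88 in wild-type pools. The list mean thus lay below every wild-type pool in 3 of the 4 Tet1gt/wt pools. The median was -0.71, or -0.41 without Tet1gt/wt pool 4 and -0.56 with the correction for GC content and length. Y-linked transcripts hold 36.1% to 43.8% GC, whereas pool 4 read GC-rich transcripts higher. The part of Y-linked genes in the other differences was not tested.

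**Figure D4:**
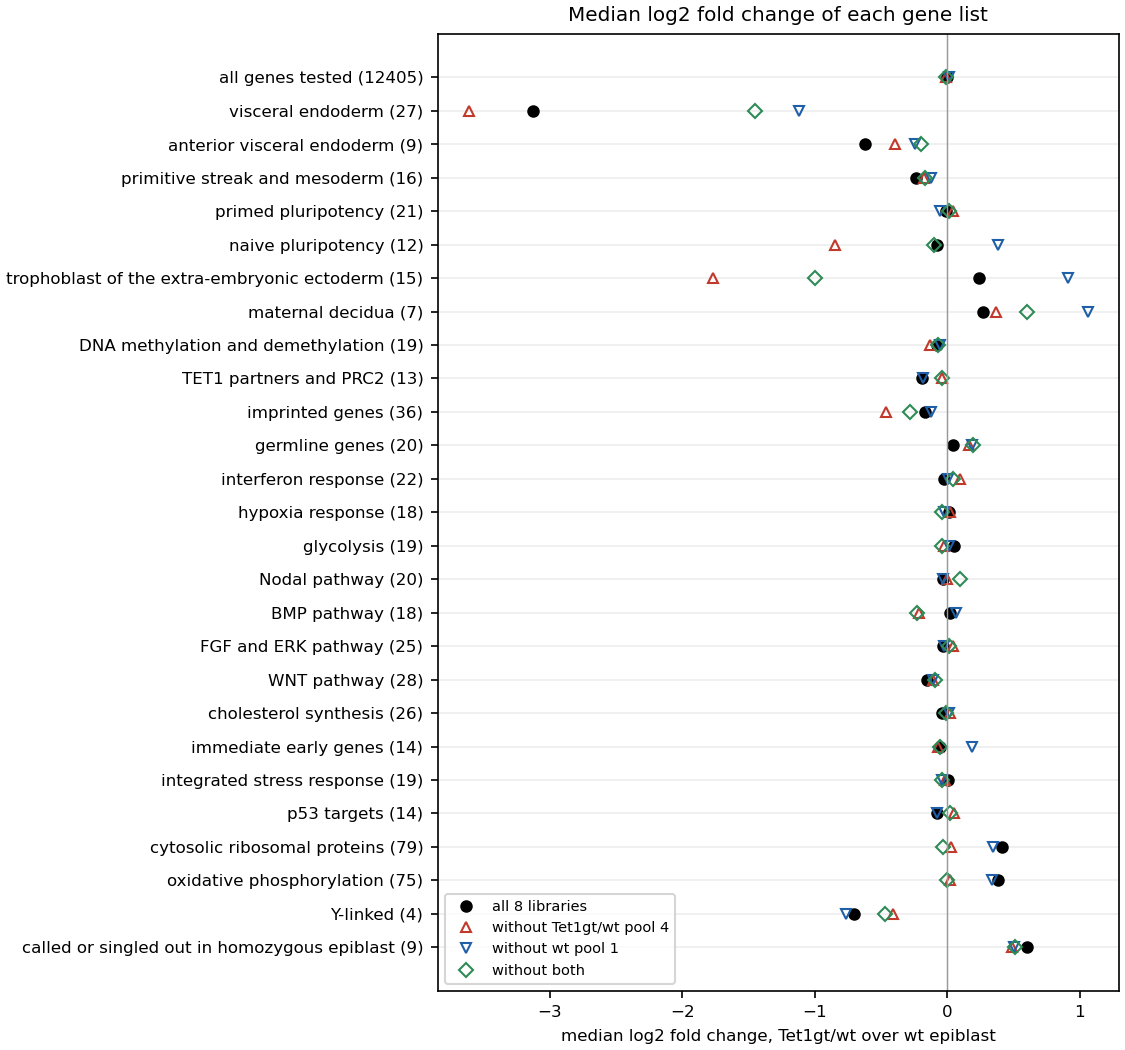
Median log2 fold change, Tet1gt/wt over wild-type epiblast, of the tested members of each gene list (number tested in brackets), with all 8 libraries, without Tet1gt/wt pool 4, without wild-type pool 1 and without both. Visceral endoderm reads -3.13 with all libraries and -1.45 without both, trophoblast lies on either side of 0, and the ribosomal and oxidative phosphorylation lists are near 0 once Tet1gt/wt pool 4 is left out.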

How the data were processed

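Per the labels' protocols, RNA of each epiblast pool was amplified (SMARTer Ultra Low Input) and sequenced in single 75-bp reads. Cutadapt 1.7.1, TopHat2 2.0.12 and mm10 (GRCm38) are named in the submitters' processing notes, and no source used here gives the counting program, its strand setting or its annotation. The authors deposited raw whole-number counts per gene, not normalised. Symbols were matched to GENCODE M21 for positions, length and GC content (98.5% of 23723).

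The 12 epiblast libraries entered 1 edgeR 4.0.16 fit (filterByExpr with minimum count 10 and minimum total 15, TMM, two-sided quasi-likelihood test), with the contrast Tet1gt/wt minus wild type and Benjamini-Hochberg adjustment over all genes tested. Log2 fold changes use a prior count of 0.125 and log2 levels a prior of 2. Alternatives were DESeq2 1.42.0, limma-voom 3.58.1, other scalings and sample sets, no filter, a correction for GC content and length, a visceral endoderm covariate, a replicate block and each library left out. Scripts were tested on simulated data.

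Genes named are, whatever their p, Tet1, the methylation genes and those singled out in homozygous epiblast; the 10 higher and 10 lower of smallest p without overlap and at a mean log2 CPM of 1 or more; up to 4 members of smallest p in each list; every gene called; and 5 higher and 5 lower of smallest p without the doubted libraries. Not every such gene is printed, and 1 is not reported here. Lrp2, Hnf4a, Trf, Dab2 and Cdx2 were added after their values were seen. The lists and members were chosen with earlier results of these data known. Libraries of a group differed by more than counting noise (chi-square 12.3 to 101 per degree of freedom) and each pool counted as a replicate, so p-values measure the spread between pools. Reads were amplified and carried no molecular identifiers, so floors cover counting error only.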

Additional observations from a re-analysis of the deposited data

Results flagged for a closer look

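A library that lay far from the 3 others of its group was looked for in 184 groups of 4 values, and 18 were found by Dixon's criterion, where chance gives about 1 in 20. In 2 of the 18, Apob and Dkk1, the 3 other pools were at 0, so the criterion was met whatever the value, which leaves 16. Of all 18, 8 were Tet1gt/wt pool 4, with Apob among the 8. That pool was the lowest of its group for Tet1 (66.2 CPM), Dnmt1 (209.6 CPM), Cd44 (0.175 CPM) and Nr3c1 (0.873 CPM), and the highest for Apob (0.349 CPM, the others at 0) and Anxa5 (43.0 CPM). It was also the highest in mean log2 CPM for ribosomal protein genes (9.42) and oxidative phosphorylation genes (7.56).

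The remaining values were spread over the other pools. Tet1gt/wt pool 5 was the lowest of its group for Twist1 (1.19 CPM), Vegfa (3.30 CPM) and the integrated stress response list (mean log2 CPM 5.20). Tet1gt/wt pool 3 was the highest for Armc9 (15.5 CPM) and Dab2 (27.7 CPM). Tet1gt/wt pool 2 was the highest for Dkk1 (0.107 CPM, the others at 0) and for the germline list (mean log2 CPM 2.46). Wild-type pool 1 was the highest for Zfp954 (12.8 CPM) and Dab2 (363 CPM), and wild-type pool 4 for Lrp2 (90.6 CPM).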

How the results depend on the processing

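In all 20 alternatives, each library left out in turn among them, 0 genes were called in either direction except by DESeq2, which called 4 lower and was not repeated with a library left out. Tet1 stayed lower in every alternative, with a log2 fold change of -0.59 to -0.27 when 1 library was left out. Replicate numbers are not stated to pair genotypes, and deviations of same-numbered pools correlated at 0.105, 0.219 and 0.0990, so no pairing was assumed. With the replicate block 0 genes were called, 151 had an unadjusted p under 0.05 (298 without it), 2 of 3 Tet1gt/wt pools correlated best with their own number, Mixl1 turned to 0.50, and the medians of anterior visceral endoderm, decidua and interferon genes were -0.10, 0.46 and -0.12.

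The visceral endoderm median was 0.34 with the covariate built from it, -1.45 without both doubted libraries, -1.46 without those and homozygous pool 3 (added after seeing the data), and -3.61 to -1.12 with 1 library left out. Without both, and without the 3 pools, the medians were -0.030 and -0.036 for ribosomal genes (0.025 to 0.54 with 1 left out), -0.0019 and -0.0077 for oxidative phosphorylation (0.019 to 0.50) and 0.60 and 0.59 for decidua (0.11 to 1.06). The covariate gave 0.43 for anterior visceral endoderm, 1.26 for decidua and 0.14 for interferon genes. Decidua read 0.86 with the 8 libraries alone, interferon -0.12 in limma-voom, and the homozygous list 0.33 with the GC and length correction. With 1 library left out, trophoblast ran over -1.77 to 0.91, interferon -0.0017 to 0.092 and hypoxia -0.070 to 0.18.

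Signs turned without both doubted libraries for Tet2 (0.17), Dnmt1 (0.0068), Dnmt3a (0.033), Dnmt3l (-0.28), Uhrf1 (0.022) and Jmjd8 (-0.28), and without the 3 pools likewise (0.16, 0.00074, 0.027, -0.29, 0.016 and -0.28). They turned with the covariate for Tet2 (0.50), Tet3 (0.048), Anxa5 (0.52) and Mixl1 (0.47), and with the GC and length correction for Dnmt3a (0.11), Uhrf1 (0.022) and Jmjd8 (-0.054). Dnmt3a read 0.0052 in DESeq2, 0.0050 with its size factors and 0.0020 in limma-voom. Leaving out 1 library crossed 0 for Tet2 (-0.94 to 0.62), Tet3 (-0.35 to 0.026), Dnmt3a (-0.091 to 0.092), Dnmt3b (-0.24 to 0.032), Dnmt3l (-0.45 to 0.51), Uhrf1 (-0.041 to 0.019), Jmjd8 (-0.16 to 0.22), Nnat (-0.18 to 0.11) and Anxa5 (-3.10 to 0.20). Apart from fewer samples, the cause was not tested. Genes such as Barx1 and Zfp791 lie near the floor of 3 counts, where smaller differences were not detectable at this depth.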
